A study of Mus musculus with 36 samples.

Results

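The miR-322/miR-503/miR-542/miR-450 cluster is a run of 7 miRNA hairpins on the mouse X chromosome, and 9 of its mature miRNAs were followed here through 36 miRNA-seq libraries of neonatal kidney. The members were taken by their mature names (mmu-miR-322-5p, mmu-miR-322-3p, mmu-miR-503-5p, mmu-miR-351-5p, mmu-miR-542-3p, mmu-miR-542-5p, mmu-miR-450a-5p, mmu-miR-450b-5p and mmu-miR-450b-3p, written below without the species prefix), which makes 9 of the 1915 mature miRNAs in the count table. Whole kidneys came from C57BL/6 mice of 2 models of autosomal dominant polycystic kidney disease, aged 1, 3 or 7 days after birth (P1, P3, P7). Every mouse carried floxed alleles of 1 disease gene, Pkd1f/f or Pkd2f/f. Those without Cre are called WT here, although both of their alleles are floxed, and those with the HoxB7-Cre transgene (Pkd1f/f:HoxB7-Cre and Pkd2f/f:HoxB7-Cre) are called KO. HoxB7-Cre acts in the collecting duct, which leaves the gene in the other cells of a KO kidney, and the small RNA libraries hold no reading of Pkd1 or Pkd2 that could check the labels. Each of the 12 groups of model, age and genotype had 3 libraries, with 12569939 to 32663566 miRNA reads a library. The labels number the libraries within a group without naming the animals, so p-values measure the spread between these libraries. The sex of the animals is not given in the labels, and its part in the levels of this X-linked cluster was not tested. In whole kidney RNA, fewer cells of a type and less of a miRNA per cell cannot be told apart.

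miRNAs that lie close together are usually cut from 1 long primary transcript, first by Drosha and then by Dicer, and each hairpin can give a miRNA from its 5′ arm (5p) and from its 3′ arm (3p). The arm loaded into Argonaute is kept, and its partner is mostly lost, so the members of a cluster share a transcript but not necessarily a level. miR-322 and miR-503 carry seeds of the miR-15/16 type, which are known for acting on G1 cyclins and on Cdc25a and for slowing the cell cycle, and both rise when myoblasts leave the cycle to form muscle. The cluster is also known for its expression in the embryo and in growing juvenile organs, where it falls as growth slows.

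The hairpins lie at X:53047997-53054349 on GRCm38, a stretch of 6353 bases on the minus strand. In the order of transcription they are Mir322, Mir503, Mir351, Mir542, Mir450-2, Mir450-1 and Mir450b, whose starts lie 295, 996, 4862, 5982, 6105 and 6271 bases downstream of that of Mir322. None of the 7 overlaps the gene or exon of another annotated transcript. The lincRNA Gm28730 lies between Mir542 and Mir351, and the noncoding transcript C430049B03Rik lies upstream of Mir322, both on the same strand. The mature sequences are given because the seeds, bases 2 to 8 from the 5′ end in capitals, set which members could share targets and which reads could be mistaken for each other. They are RefSeq sequences of GRCm38.p6, and all 9 names matched.
miR-322-5p: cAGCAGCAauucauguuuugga
miR-322-3p: aAACAUGAagcgcugcaacac
miR-503-5p: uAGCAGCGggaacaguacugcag
miR-351-5p: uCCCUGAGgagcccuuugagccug
miR-542-3p: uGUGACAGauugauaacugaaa
miR-542-5p: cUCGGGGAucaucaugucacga
miR-450a-5p: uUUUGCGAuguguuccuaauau
miR-450b-5p: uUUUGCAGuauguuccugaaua
miR-450b-3p: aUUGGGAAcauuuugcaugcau

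The seed of miR-503-5p differed from that of miR-322-5p at 1 of 7 positions (A8G, with miR-322-5p first and positions counted from the 5′ end), and 11 of the 22 aligned positions of the whole sequences were identical. miR-450a-5p and miR-450b-5p were more alike over their length, at 15 of 22 positions, but differed at 2 seed positions (G7A and A8G, with miR-450a-5p first). The seed of miR-322-5p was shared by 9 other mouse miRNAs of the table and that of miR-351-5p by 4, and the most familiar of these are printed below because they were also measured in every library.
miR-15a-5p: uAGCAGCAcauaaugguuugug
miR-15b-5p: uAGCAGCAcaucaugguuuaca
miR-16-5p: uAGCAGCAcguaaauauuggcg
miR-195a-5p: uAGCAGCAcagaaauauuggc
miR-497a-5p: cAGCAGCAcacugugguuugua
miR-125a-5p: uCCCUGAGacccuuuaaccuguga
miR-125b-5p: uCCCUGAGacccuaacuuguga
Over the whole length, seed included, miR-322-5p matched miR-15b-5p at 16 and miR-16-5p at 12 of 22 positions. miR-351-5p matched miR-125a-5p at 10 of 24 and miR-125b-5p at 10 of 22, few beyond the seed. Reads of miR-450a-5p come from 2 hairpins with 1 mature sequence and cannot be assigned to either.

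All 9 members were read in every library, and the cluster as a whole took from 0.318% to 1.07% of the miRNA reads. miR-351-5p held 53.8% of the cluster's reads and miR-322-5p 28.3%, and they ranked 30 and 42 among the 1915 miRNAs by mean share of reads. miR-322-3p, the other arm of the first hairpin, held 7.97%. The downstream members miR-542-3p, miR-450a-5p and miR-450b-5p held 3.74%, 2.79% and 2.60%, and the remaining 3, miR-503-5p, miR-542-5p and miR-450b-3p, held 0.366%, 0.299% and 0.0956%. These are shares of reads, and how well each sequence is captured in a library differs between miRNAs, so they do not order the molecules in the cell.

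Levels are given as CPM, counts per 1000000 TMM-scaled reads, set within each model, so that the 2 models are not on 1 scale. In the Pkd1 model miR-351-5p ran from 1601 to 5666 (median 3233) CPM, and in the Pkd2 model from 2597 to 8546 (median 3716) CPM. miR-322-5p ran from 768 to 3463 (median 1523) and from 1239 to 7426 (median 2161) CPM. Its partner miR-322-3p kept to a narrower range in both models, 322 to 614 (median 426) and 405 to 669 (median 541) CPM. Replicates of 1 group were thus far apart for some members and close for others. The 3 Pkd2 KO libraries at P7 gave 1239, 7426 and 2688 CPM of miR-322-5p, a range of 6.00-fold and the widest of any group, but 528, 589.5 and 456 CPM of miR-322-3p. The median coefficient of variation within a group was 27.1% for miR-322-5p, 11% for miR-322-3p and 8.80% for miR-450a-5p. Counting error was small beside this spread for most members; the lowest count of any member was 11 reads of miR-450b-3p, and the lowest of miR-322-5p was 17729.

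**Figure D1:**
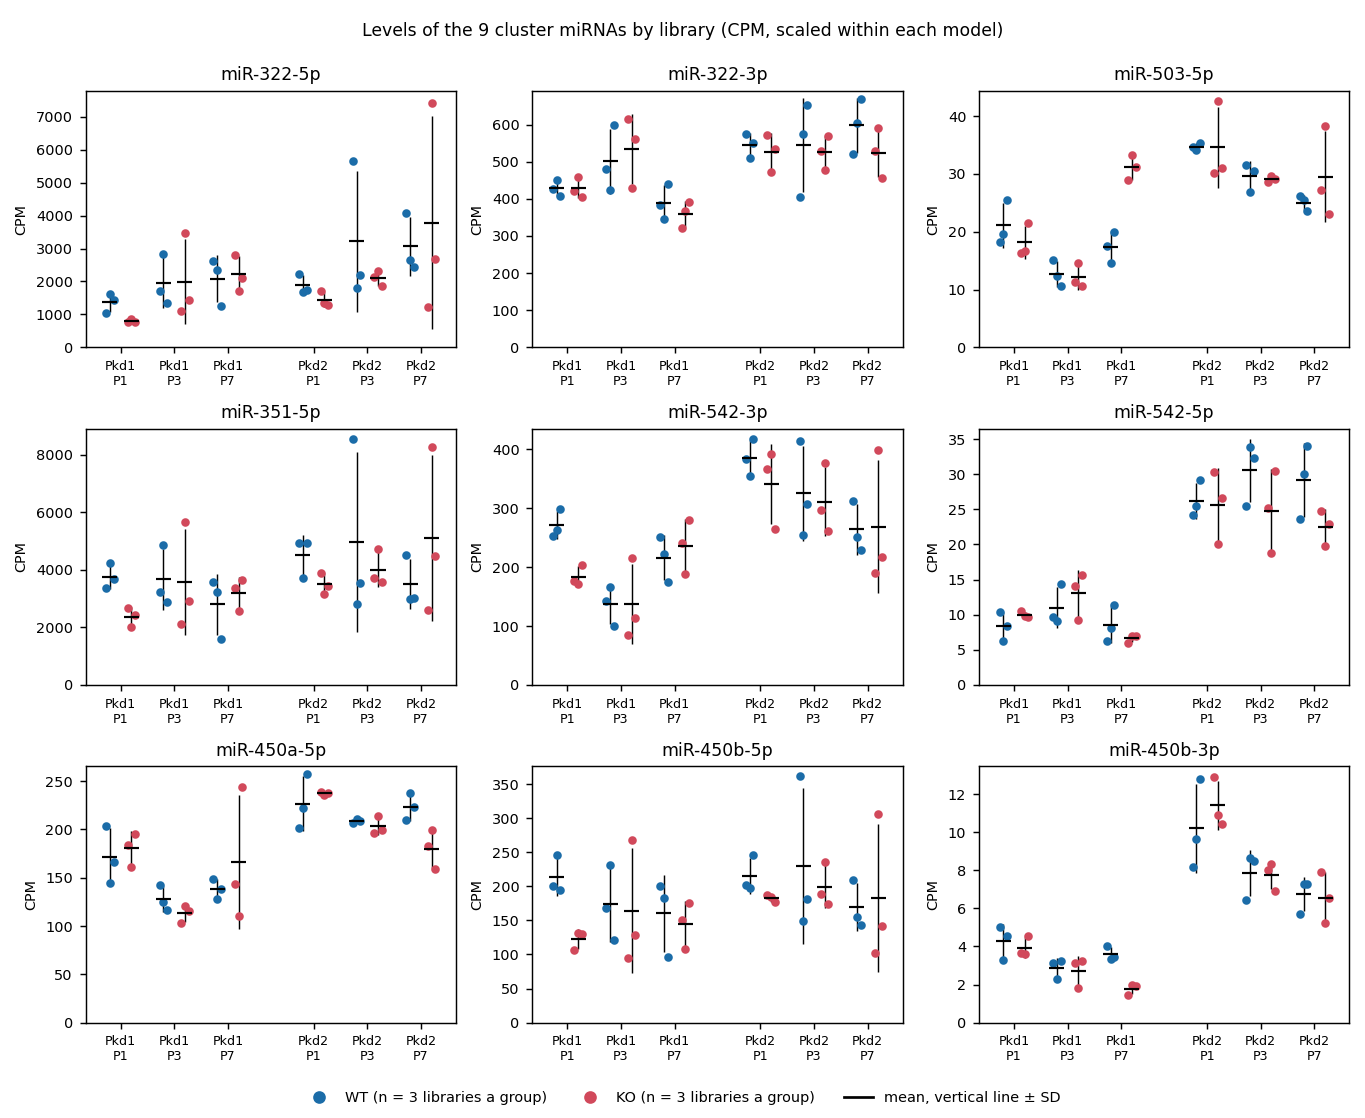
CPM of each of the 9 members in every library, with the 6 combinations of model and age along the horizontal axis, WT in blue and KO in red; bars mark the mean of 3 libraries and vertical lines the SD. miR-322-5p and miR-351-5p spread widely within groups at P3 and P7, whereas miR-322-3p does not, and the 3 Pkd1 KO libraries at P7 lie above the WT libraries for miR-503-5p and below them for miR-450b-3p.

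The spread between replicates was shared by some members and not by others. After the mean of each group was taken from log2 CPM, miR-322-5p, miR-351-5p, miR-542-3p and miR-450b-5p, the abundant arms of their hairpins, varied together over the 36 libraries, with Pearson's r between 0.85 and 0.95 for their 6 pairs. Their rarer partners miR-322-3p, miR-542-5p and miR-450b-3p formed a second set (r between 0.44 and 0.63) that went the other way: all 12 correlations between the sets were negative, from -0.70 to -0.40. The arms of 1 hairpin varied in opposite directions, with r = -0.48 for miR-322, -0.63 for miR-542 and -0.54 for miR-450b. miR-503-5p went more with the first set, with r from 0.28 (miR-351-5p) to 0.61 (miR-542-3p) against its members and 0.37 against miR-322-5p. miR-450a-5p was less tied to any member, with r from 0.064 (miR-322-5p) to 0.43 (miR-542-3p) against the first set. These correlations describe 36 libraries that share their groups, depth and scaling, and they carry no test.

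The miRNAs outside the cluster most like miR-322-5p by the same measure, among 314 with a mean of at least 10 CPM, were miR-301a-3p (r = 0.97), miR-186-5p (0.96), miR-98-3p (0.96), miR-10a-5p (0.94) and miR-30e-5p (0.93). Of all 323 miRNAs ranked with the members included, 47 had r above 0.8, so that miR-351-5p, at rank 4, miR-450b-5p, at rank 6, and miR-542-3p, at rank 34, were among many. One of these neighbours dominates the libraries. miR-10a-5p and miR-10b-5p, which are encoded in the Hox clusters, together took 31.4% to 81.0% of each library, and their share differed between replicates. With group means removed, the log2 share of the miR-10 pair had r = 0.90 with miR-322-5p and 0.91 with miR-351-5p, against -0.69 with miR-322-3p and -0.76 with miR-542-5p. The log2 TMM scaling factor had r = -0.94 with miR-322-5p, so the levels of these members and the scaling of the library moved together. The libraries with the most miR-322-5p in their groups, Pkd1 KO 2 and Pkd2 WT 1 at P3 and Pkd2 KO 2 at P7, had miR-10 shares of 79.8%, 71.9% and 74.1%, the highest in each of those groups. Some results on these members are therefore given below beside the miR-10 shares of the libraries, or with that share as a covariate, a fit added after the values had been seen. Because the share was picked for varying with these members within groups, that fit takes out part of their spread by construction. Its smaller p-values are no separate support for a change.

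**Figure D2:**
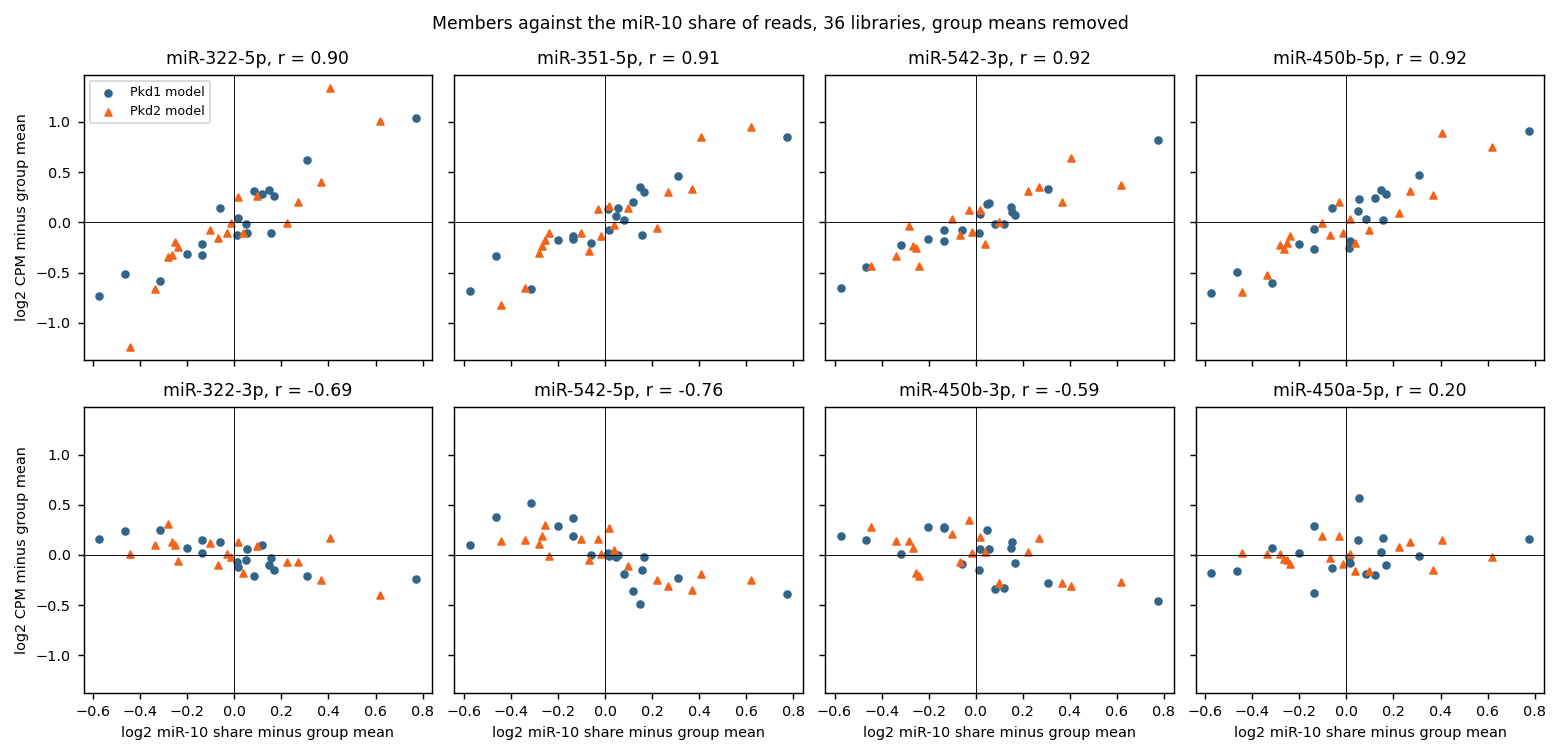
Deviation of each member's log2 CPM from its group mean (vertical) against that of the log2 share of reads held by miR-10a-5p and miR-10b-5p (horizontal), 36 libraries, circles for the Pkd1 and triangles for the Pkd2 model. The abundant arms in the upper row rise with the miR-10 share, miR-322-3p, miR-542-5p and miR-450b-3p fall, and miR-450a-5p is flat.

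The first question was how the cluster changed as the kidney matured. The cluster's share of all reads was lower at P7 than at P1 in both models, but P3 lay differently between them. In the Pkd1 WT kidneys it was 0.621% ± 0.0793 (SD, n = 3) at P1, 0.956% ± 0.0790 at P3, above every P1 library, and 0.339% ± 0.0207 at P7. In the Pkd2 WT kidneys it was 0.988% ± 0.0847, 0.829% ± 0.0520 and 0.586% ± 0.0233 at the 3 ages. The miR-10 pair took 62.9, 75.1 and 69.9% of the reads of the Pkd1 WT libraries at P1. It took 57.4, 63.8 and 37.3% at P3 and 79.9, 81.0 and 57.9% at P7. Shares in the Pkd2 WT libraries were 49.7, 44.3 and 45.5%, then 71.9, 37.0 and 38.5%, then 66.4, 47.9 and 42.8%. The part of the miR-10 pair in the cluster's share was not tested. On the TMM scale few members were called. Tests were edgeR's quasi-likelihood F-test over all 706 (Pkd1) or 746 (Pkd2) miRNAs with Benjamini-Hochberg adjustment, and a member is called at an adjusted p under 0.05. Log2 fold changes are given ± their standard error. In WT kidneys at P7 against P1, 0 of 9 members were called in the Pkd1 model, where 21.5% of all miRNAs were called, and 1 of 9 in the Pkd2 model, where 28.3% were. At an unadjusted p under 0.05 the members numbered 0 and 2, where 36.3% and 39.8% of all miRNAs passed, and DESeq2 called 0 and 1. The libraries of the 2 ages were apart for 1 of 9 members (miR-542-3p) in the Pkd1 and 4 of 9 (miR-322-5p, miR-450b-3p, miR-503-5p and miR-542-3p) in the Pkd2 model, where 33.1% and 49.9% of all miRNAs were apart. The calls over all miRNAs split into 73 higher and 79 lower in the Pkd1 and 85 higher and 126 lower in the Pkd2 model, but into 4 and 132, and 6 and 216, when only library totals set the scale.

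The member called in the Pkd2 WT kidneys was miR-450b-3p, the rare arm of the last hairpin. It gave 8.20, 9.67 and 12.8 CPM at P1 and 5.72, 7.27 and 7.30 CPM at P7. All P7 libraries were below all P1 libraries, with a log2 fold change of -0.59 ± 0.21 (adjusted p = 0.042). The call was lost when any 1 of 5 of the 6 libraries was left out, all but the first P1 library. It was also lost in 4 of 8 other settings, among them DESeq2's size factors in edgeR, no filter on low counts and the replicate block. miR-503-5p, the neighbour of miR-322, had 34.6, 34.1 and 35.4 CPM at P1 and 26.1, 25.5 and 23.5 CPM at P7 in the same kidneys, again with no overlap, but its log2 fold change of -0.47 ± 0.18 (adjusted p = 0.0684) missed the threshold. In the Pkd1 WT kidneys neither member was called, with log2 fold changes of -0.25 ± 0.26 (adjusted p = 0.511) and -0.28 ± 0.21 (adjusted p = 0.353).

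miR-322-5p and miR-351-5p, the main products, had fold changes of opposite sign in WT kidneys, and neither was called. miR-322-5p had 1058, 1609 and 1438 CPM at P1 and 2622, 2349 and 1267 CPM at P7 in the Pkd1 model, and 2235, 1694 and 1737 and 4091, 2643 and 2452 CPM in the Pkd2 model. The P7 libraries were on average higher in both, with log2 fold changes of 0.60 ± 0.39 (adjusted p = 0.282) and 0.70 ± 0.49 (adjusted p = 0.324). miR-351-5p had log2 fold changes of -0.43 ± 0.34 (adjusted p = 0.384) and -0.36 ± 0.39 (adjusted p = 0.541), and miR-542-3p -0.33 ± 0.29 (adjusted p = 0.43) and -0.54 ± 0.26 (adjusted p = 0.138). The miR-10 covariate raised the calls over all 706 miRNAs of the Pkd1 model from 152 to 238 for the same comparison. In a fit with it 4 of 9 members were called in the Pkd1 and 5 of 9 in the Pkd2 model. There the log2 fold changes were 0.48 (adjusted p = 0.0353) and 0.42 (adjusted p = 0.189) for miR-322-5p, -0.55 (adjusted p = 0.0223) and -0.58 (adjusted p = 0.0198) for miR-351-5p, and -0.40 (adjusted p = 0.0194) and -0.68 (adjusted p = 0.00139) for miR-542-3p. The sign for miR-322-5p changed with the scale used. Under library totals alone, where the median of all miRNAs moved by -0.68 in the Pkd1 and -0.78 in the Pkd2 model, its log2 fold changes were -0.16 and -0.075. The difference between the models in the P7 against P1 change was called for 0 of 9 members, where 0.258% of 775 miRNAs were called. No member had an unadjusted p under 0.05, where 7.1% of all miRNAs did, and DESeq2 called 0.

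In KO kidneys more members were called between P1 and P7. There were 3 of 9 in the Pkd1 model, where 17.1% of all miRNAs were called, and 2 of 9 in the Pkd2 model, where 24.4% were. The 2 ages were apart for 5 of 9 and 2 of 9 members, where 49.4% and 31.8% of all miRNAs were. miR-322-5p rose in the Pkd1 KO kidneys from 768, 872 and 780.3 CPM at P1 to 2810.5, 1723 and 2116 CPM at P7, with no overlap and a log2 fold change of 1.46 ± 0.40 (adjusted p = 0.0228). With 1 library left out its adjusted p ran from 0.0296 to 0.0976, and the call was lost without any of the P1 libraries or the first P7 library. The miR-10 shares of the same libraries were 60.3, 57.3 and 61.8% at P1 and 79.0, 67.9 and 77.5% at P7, also without overlap, and with it as a covariate the log2 fold change was 1.00, adjusted p = 0.00114 in edgeR. miR-503-5p rose as well, from 16.4, 16.7 and 21.4 to 28.9, 33.3 and 31.2 CPM, with a log2 fold change of 0.78 ± 0.21 (adjusted p = 0.0202). That call was lost without the first or second P1 or the second P7 library. The sizes depend on the scaling, because with library totals alone, where the median of all miRNAs moved by -1.16, miR-322-5p had a log2 fold change of 0.28 and miR-503-5p of -0.34. miR-450b-3p fell from 3.64, 3.59 and 4.57 CPM, with 97, 97 and 144 reads, to 1.43, 1.97 and 1.92 CPM, with 11, 37 and 21 reads. Its log2 fold change was -1.13 ± 0.26 (adjusted p = 0.0105), no longer called without the first P7 library.

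In the Pkd2 KO kidneys miR-450b-3p fell too, from 12.9, 10.9 and 10.4 to 7.92, 5.24 and 6.53 CPM, with a log2 fold change of -0.79 ± 0.21 (adjusted p = 0.0129) that passed the test with any 1 library left out. miR-450a-5p, the product of the 2 Mir450 hairpins beside it, fell from 239, 236 and 237 to 182, 199 and 159 CPM, with a log2 fold change of -0.40 ± 0.13 (adjusted p = 0.0402) that passed only with all libraries or without the second P7 library. That call was also lost in 4 of 8 other settings. miR-322-5p had 1711, 1354 and 1285 CPM at P1, and at P7 the 3 libraries given above overlapped these. Its log2 fold change of 1.38 ± 0.50 (adjusted p = 0.0549) missed the threshold, and without the second P7 library it was 0.40 (adjusted p = 0.549). Without the first P7 library it was 1.80, adjusted p = 0.00805, and the threshold was also passed with DESeq2 (1.43, adjusted p = 0.0209), DESeq2's size factors in edgeR (1.43, adjusted p = 0.0475) and no filter on low counts (1.31, adjusted p = 0.0356). With the miR-10 covariate it was 0.48, adjusted p = 0.198. A member called in KO and not in WT kidneys is not shown to differ between them. The change of the KO effect from P1 to P7 was called for 0 of 9 members in either model, where 0.142% (Pkd1) and 0.536% (Pkd2) of all miRNAs were called. At an unadjusted p under 0.05 the members numbered 2 (miR-503-5p and miR-450b-3p) and 0, where 12% and 16.9% of all miRNAs passed, and DESeq2 called 0 in both.

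The shorter steps gave calls in 1 comparison. In Pkd1 WT kidneys at P3 against P1, 2 of 9 members were called, both lower, where 18.8% of all miRNAs were called, and 4 of 9 had the ages apart, where 29.6% were. miR-503-5p had 18.2, 19.6 and 25.5 CPM at P1 and 15.1, 12.3 and 10.6 CPM at P3, a log2 fold change of -0.73 ± 0.21 (adjusted p = 0.0251). miR-542-3p had 254, 263 and 298 and 143, 167 and 100.2 CPM, a log2 fold change of -0.99 ± 0.29 (adjusted p = 0.03), and the 2 ages did not overlap for either. One of the P1 libraries, WT 1, held 1342 CPM of 6 muscle miRNAs, against at most 226 CPM in the libraries of other groups. Without it the log2 fold changes were -0.83 (adjusted p = 0.0321) and -1.04 (adjusted p = 0.0555), and a count of 0 to 2 members was left when each library was left out in turn. In the Pkd2 WT kidneys the same changes were -0.23 ± 0.18 (adjusted p = 0.596) and -0.24 ± 0.26 (adjusted p = 0.729). In that step 0 of 9 members were called, where 0.268% of all miRNAs were, 0 had an unadjusted p under 0.05, where 14.2% did, and DESeq2 called 0. From P3 to P7 in WT kidneys 0 of 9 members were called in either model, where 14.4% (Pkd1) and 4.16% (Pkd2) of all miRNAs were called. At an unadjusted p under 0.05 they numbered 3 and 0, where 28.9% and 24.5% passed, and DESeq2 called 0 in both.

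Cell type markers moved over the same interval. The 5 kidney tubule miRNAs summed to 6194 to 8415 CPM at P1 and 14702 to 23292 CPM at P7 in the Pkd1 WT kidneys, and to 10663 to 13047 and 22157 to 34463 CPM in the Pkd2 WT kidneys. In the Pkd1 and Pkd2 models respectively, 3 and 4 of the 5 tubule markers rose, as did 4 and 1 of 4 leukocyte, 1 and 1 of 2 endothelial and 1 and 0 of 3 erythroid markers. Of the muscle markers 6 and 0 of 6 fell, and the 6 summed to 1342, 44.4 and 15.9 CPM in the Pkd1 WT libraries at P1 and 51.6, 30.5 and 41.3 CPM at P7, so that 1 library alone was above the P7 range. In the same order 0 and 1 of 3 mesenchymal markers and 0 and 1 of 1 liver marker fell, while no endocrine marker was called. Their part in the levels of the cluster was not tested.

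Because all members are cut from neighbouring hairpins and counted in the same library, their ratios need no scaling, and these gave the clearest age pattern of the cluster. The log2 ratio of miR-351-5p to miR-322-5p was 1.67, 1.40 and 1.36 in the Pkd1 WT kidneys at P1, 0.91, 0.78 and 1.12 at P3 and 0.45, 0.46 and 0.34 at P7. In the Pkd2 WT kidneys it was 1.14, 1.13 and 1.5, then 0.59, 0.66 and 0.69, then 0.14, 0.18 and 0.30. The 3 ages did not overlap in either WT series, and miR-351-5p went from 2.78 to 1.33 times the reads of miR-322-5p in the Pkd1 model and from 2.39 to 1.16 times in the Pkd2 model. The Pkd1 KO kidneys gave 1.81, 1.2 and 1.63 at P1 and 0.25, 0.58 and 0.79 at P7, and the Pkd2 KO kidneys 1.19, 1.22 and 1.42 and 1.07, 0.16 and 0.73. In the KO kidneys of both models the P3 libraries overlapped those at P7. Every P7 library was below every P1 library in all 4 combinations of model and genotype. The mean difference was -0.94 on the log2 scale over 24 libraries, with p = 1.25e-05 in a two-sided exact permutation test within the 4 combinations, the smallest p that its 160000 arrangements can give. The ratio was chosen after its values had been seen, so this p-value is not that of a planned test.

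Other abundant members were also lower against miR-322-5p at P7 than at P1. The P7 minus P1 difference in the log2 ratio of miR-542-3p to miR-322-5p was -1.16 and that of miR-450b-5p to miR-322-5p -1.11, again without overlap in 4 of 4 combinations and at the smallest p of the exact permutation test, 1.25e-05, or 2.08e-05 adjusted over the 5 neighbours of miR-322-5p. For miR-503-5p and miR-450a-5p the differences were -0.97 (exact p = 0.000338, adjusted over the 5 ratios 0.000338) and -1.15 (exact p = 0.000188, adjusted over the 5 ratios 0.000234), with libraries apart in 1 of 4 combinations. P3 did not lie between the other ages for every member. The mean log2 ratio of miR-542-3p at P1, P3 and P7 was -2.31, -3.81 and -3.21 in the Pkd1 WT kidneys, lowest at P3, and -2.29, -3.14 and -3.51 in the Pkd2 WT kidneys. That of miR-503-5p was -6.01, -7.22 and -6.84 and -5.75, -6.57 and -6.90, and that of miR-450b-5p -2.66, -3.48 and -3.70 and -3.13, -3.72 and -4.16. These 5 ratios were chosen after the values had been seen, and all have miR-322-5p as the denominator, so they are not 5 separate observations. Within groups the ratios also moved with the miR-10 share, with r from -0.81 for miR-450a-5p to -0.47 for miR-351-5p. After the slope on that share had been taken out, the P7 minus P1 differences were -0.87 for miR-351-5p, -1.03 for miR-542-3p and -1.04 for miR-450b-5p, each at a permutation p = 1.25e-05. The slope was set from the observed groups and kept while ages were permuted. These p-values are therefore not exact and are no separate support for a change. Reads of miR-322-5p thus increased relative to those of all 5 neighbours between P1 and P7.

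**Figure D3:**
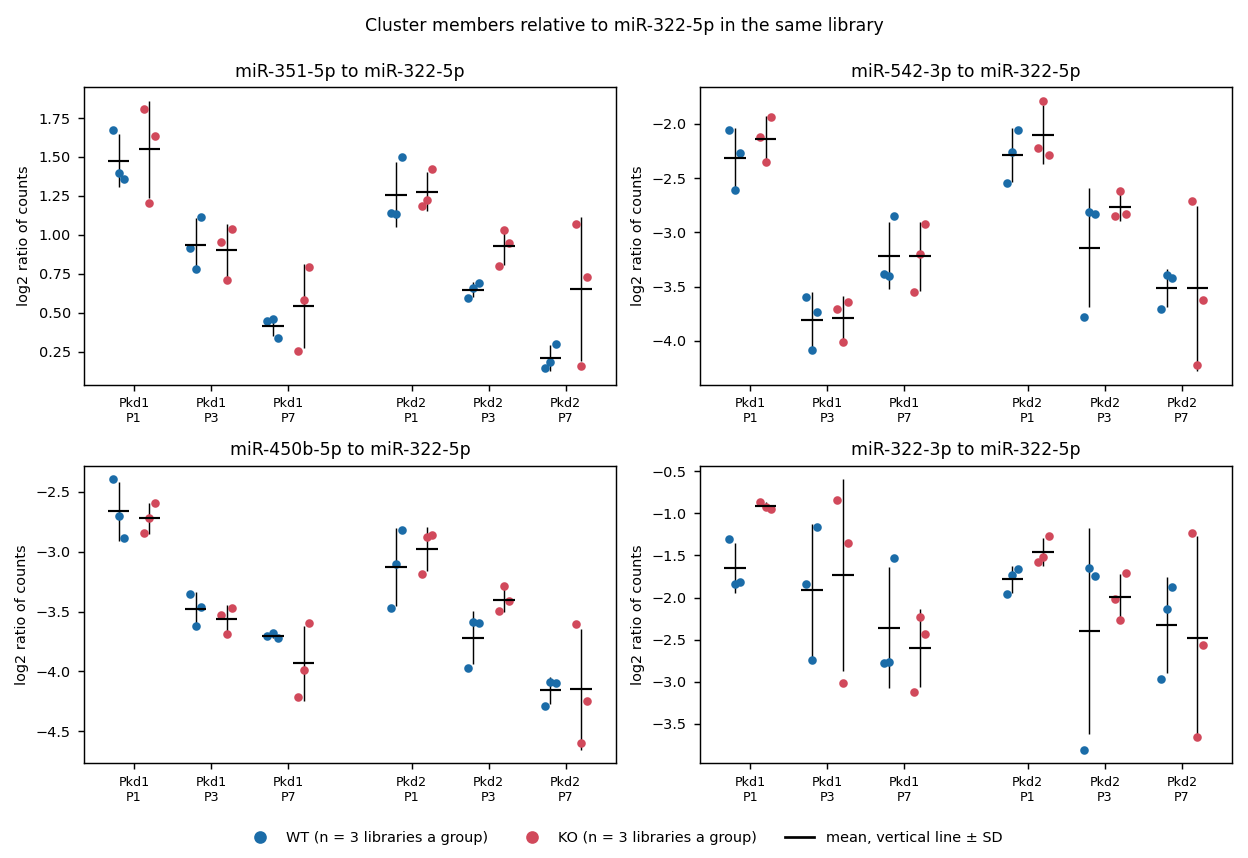
log2 ratio of the counts of 4 members to those of miR-322-5p in the same library, by model and age, WT in blue and KO in red, with means and SD of 3 libraries. The upper panels and the lower left panel show every P7 library below every P1 library of its model and genotype; the 2 arms of miR-322, lower right, spread more within groups.

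The 2 arms of miR-322 were read in changing proportion as well. The log2 ratio of miR-322-3p to miR-322-5p was -1.31, -1.83 and -1.81 in Pkd1 WT kidneys at P1 and -2.78, -2.77 and -1.53 at P7, and -1.96, -1.73 and -1.66 and -2.97, -2.13 and -1.87 in Pkd2 WT kidneys. In Pkd1 KO kidneys it went from -0.86, -0.93 and -0.95 to -3.12, -2.23 and -2.44, and in Pkd2 KO kidneys it was -1.58, -1.52 and -1.27 and -1.23, -3.65 and -2.56. Only the Pkd1 KO libraries of the 2 ages were apart. The mean difference over the 4 combinations was -0.99, or 1.99-fold lower at P7, with exact permutation p = 0.000988 and 0.00296 after adjustment over the 3 arm ratios. With WT libraries alone it was -0.62 at exact p = 0.06. The miR-10 share had r = -0.94 with this ratio within groups, and with its slope taken out the difference was -0.57 at permutation p = 0.000125. That p-value is not exact, because the slope was set from the observed groups, and it is no separate support. For miR-542 and miR-450b the rarer to the more abundant arm differed between the ages by 0.089 and -0.49, at exact permutation p = 0.696 and 0.057. Neither passed the test as planned, and in each the mean over both models differed in sign between WT and KO libraries. In Pkd1 WT, Pkd1 KO, Pkd2 WT and Pkd2 KO kidneys the differences were 0.37, -0.93, 0.70 and 0.22 for miR-542. For miR-450b they were 0.27, -1.34, -0.22 and -0.66 in the same order. The P7 libraries were apart and lower in 1 combination for each, and apart and higher in 1 for miR-542. With the slope on the miR-10 share taken out the difference for miR-542 was 0.43 at permutation p = 0.00891, and that for miR-450b -0.13 at 0.393. The same limit holds for these p-values. With KO libraries alone miR-450b gave -0.998 at exact permutation p = 0.025.

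The second question was whether loss of Pkd1 or Pkd2 in the collecting duct moved the cluster. By the main test it did not reach the threshold for any member at any age: 0 of 9 members were called at P1, P3 and P7 in the Pkd1 model, where 0%, 0% and 0.425% of all miRNAs were called, and 0 of 9 in the Pkd2 model, where 0%, 0% and 12.6% were. At an unadjusted p under 0.05 the members numbered 1, 0 and 2 in the Pkd1 model, where 8.36%, 9.07% and 10.2% of all miRNAs passed, and 0, 0 and 1 in the Pkd2 model, where 5.5%, 1.47% and 29% did, and DESeq2 called 0, 0 and 2 members in the Pkd1 and 0, 0 and 1 in the Pkd2 model.

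The member closest to a call was miR-503-5p in the Pkd1 kidneys at P7. The 3 KO libraries had 28.9, 33.3 and 31.2 CPM and the 3 WT libraries 17.6, 14.6 and 20.0 CPM, means of 31.1 ± 2.17 and 17.4 ± 2.70 (SD, n = 3). The KO libraries were all higher, by 1.79-fold in the fit, a log2 fold change of 0.84 ± 0.21 (adjusted p = 0.0882). Its ratio to the opposite arm of its hairpin, miR-503-3p, was 0.60, 0.63 and 0.50 on the log2 scale in KO and -0.057, -0.17 and 0.32 in WT kidneys. Its ratio to miR-322-3p, whose hairpin is the nearest, was -3.48, -3.46 and -3.64 in KO and -4.44, -4.56 and -4.46 in WT kidneys, and neither of these ratios overlapped. Neither was planned, here or for the Pkd2 kidneys below, and neither carries a test or a share over all miRNAs. The ratio of miR-503-5p to miR-322-5p, the abundant arm of the miR-322 hairpin, did overlap, at -6.60, -5.69 and -6.08 in KO and -7.22, -7.33 and -5.99 in WT kidneys. The adjusted p was 0.0138 in DESeq2 and 0.037 in edgeR with the miR-10 covariate, both under the threshold, and between 0.0797 and 0.995 under the other settings and left-out libraries, where the highest came with library totals alone. In the Pkd2 kidneys at P7 miR-503-5p had 27.2, 38.3 and 23.0 CPM in KO and 26.1, 25.5 and 23.5 CPM in WT libraries, which overlapped, and a log2 fold change of 0.23 ± 0.18 (adjusted p = 0.445). Its log2 ratio to miR-503-3p was apart there too, at -0.82, -0.46 and -0.35 in KO and -0.91, -1.04 and -1.18 in WT kidneys. The ratio to miR-322-3p was narrowly apart, at -4.28, -3.94 and -4.30 in KO and -4.32, -4.56 and -4.83 in WT kidneys, and that to miR-322-5p overlapped. The difference between the models in the KO effect on the level of miR-503-5p at P7 was 0.61 on the log2 scale (95% CI 0.014 to 1.2, edgeR adjusted p = 0.403), and the change of the Pkd1 KO effect from P1 to P7 was 1.06 ± 0.29 (adjusted p = 0.266).

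miR-450b-3p went the other way in the same libraries. It had 1.43, 1.97 and 1.92 CPM in KO and 4.01, 3.36 and 3.46 CPM in WT kidneys at P7, or 11, 37 and 21 against 34, 27 and 72 reads. All KO libraries were lower, with a log2 fold change of -1.01 ± 0.27 (adjusted p = 0.109). DESeq2 gave an adjusted p of 0.0367, edgeR with the miR-10 covariate gave 0.034, and the other settings and left-out libraries gave 0.0799 to 0.995. In the Pkd2 model the genotypes overlapped, with 7.92, 5.24 and 6.53 CPM in KO and 5.72, 7.27 and 7.30 CPM in WT libraries and a log2 fold change of -0.039 ± 0.21 (adjusted p = 0.943). The other 7 members overlapped between genotypes in the Pkd1 kidneys at P7, so 2 of 9 were apart, where 16.3% of all miRNAs were. For miR-322-5p the log2 fold change was 0.092, with a 95% CI of -0.74 to 0.92, and for miR-351-5p 0.19, with a 95% CI of -0.53 to 0.91, both wide enough to hold a level 1.5 times as high in KO. The 5 kidney tubule miRNAs used as markers summed to 11744 to 12599 CPM in these KO and 14702 to 23292 CPM in the WT libraries, without overlap, although 0 of the 5 was called; their part in the differences of miR-503-5p and miR-450b-3p was not tested.

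At P1 in the Pkd1 model other members set the genotypes apart, and the abundant arms had lower levels in KO kidneys. miR-322-5p had 768, 872 and 780.3 CPM in KO and 1058, 1609 and 1438 CPM in WT libraries, and miR-351-5p 2687, 2006 and 2423 and 3365, 4234 and 3692 CPM. miR-542-3p and miR-450b-5p were also apart, so that 4 of 9 members had every KO library below every WT library, where 8.22% of all miRNAs did. In either direction 19.8% of all miRNAs were apart. The log2 fold changes were -0.76 (SE 0.39) for miR-322-5p, -0.67 (0.34) for miR-351-5p, -0.56 (0.29) for miR-542-3p and -0.80 (0.36) for miR-450b-5p, each with an adjusted p of 0.571 in edgeR. Over 8 other settings they ran from -0.86 to -0.31, -0.77 to -0.24, -0.67 to -0.15 and -0.91 to -0.38 in the same order. The libraries were apart on the TMM scale, whose factors were 1.32, 1.41 and 1.28 in KO and 1.28, 0.85 and 0.90 in WT kidneys. These 4 are the members that varied together between replicates. The miR-10 shares of the same libraries were 60.3, 57.3 and 61.8% in KO and 62.9, 75.1 and 69.9% in WT kidneys, which did not overlap, and the 4 members are not 4 separate observations. Marker sums were apart in the same libraries, with 9071 to 9789 CPM of tubule miRNAs in KO and 6194 to 8415 CPM in WT, 4564 to 5063 and 3212 to 4274 CPM of 3 mesenchymal miRNAs, and 2093 to 2431 and 2792 to 3725 CPM of 3 erythroid miRNAs. None of these markers was called, and their part in the levels of the 4 members was not tested. At P3 in the same model the 9 log2 fold changes ran from -0.18 to 0.25.

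In the Pkd2 model miR-450a-5p at P7 had 182, 199 and 159 CPM in KO against 209, 237 and 223 CPM in WT kidneys. It was the 1 of 9 members whose libraries were apart, where 25.2% of all miRNAs were, and its log2 fold change of -0.31 ± 0.13 (adjusted p = 0.129) missed the threshold. DESeq2 gave an adjusted p of 0.00669, and edgeR without the second KO library 0.0448. The other settings and left-out libraries gave 0.0685 to 0.789. In the same libraries the tubule markers summed to 10971 to 18585 CPM in KO and 22157 to 34463 CPM in WT kidneys, where 3 of 5 were called lower and 1 higher. The erythroid markers summed to 4276 to 6773 and 2619.8 to 3266 CPM, where 0 of 3 was called. Neither sum overlapped, and their part in the level of miR-450a-5p was not tested. In the Pkd1 kidneys at the same age the values were 144, 111 and 244 CPM in KO and 149, 128 and 139 CPM in WT libraries, with 1 KO library far above the rest. At P1 in the Pkd2 model the genotypes were apart for 1 of 9 members, miR-450b-5p, where 13.5% of all miRNAs were. The difference between the models in the KO effect at P7 was called for 0 of 9 members, where 0.387% of all miRNAs were called, and DESeq2 called 0. At an unadjusted p under 0.05 there were 3 (miR-450a-5p, miR-450b-3p and miR-503-5p), where 12% of all miRNAs passed.

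**Figure D4:**
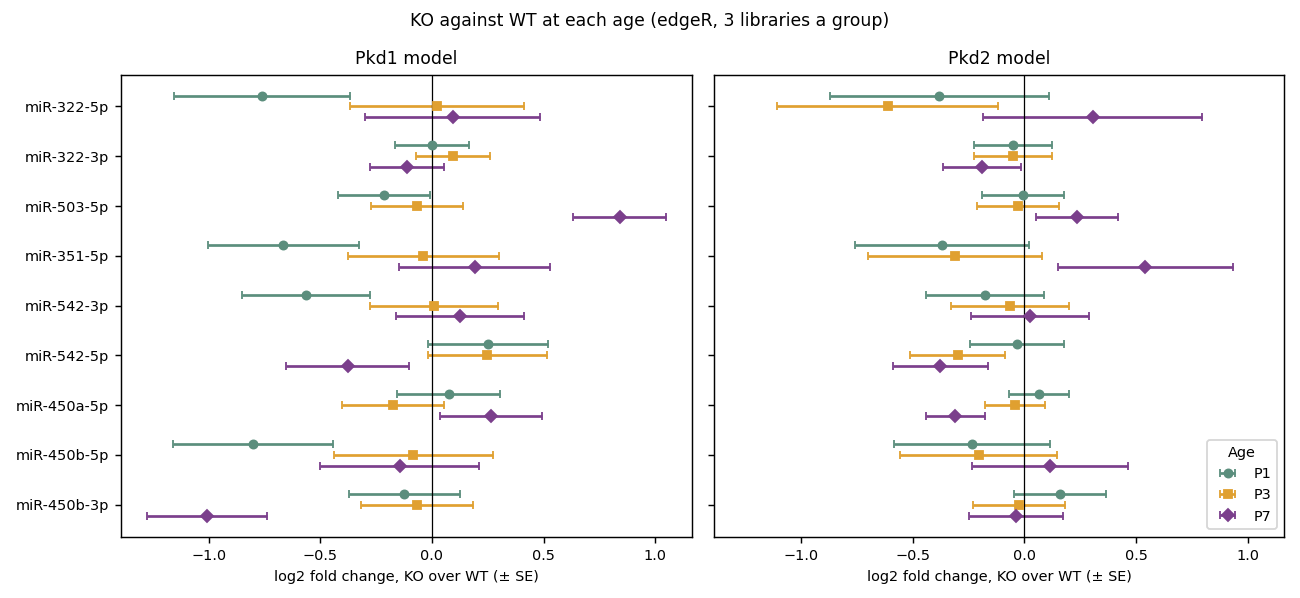
log2 fold change of KO over WT for the 9 members at P1, P3 and P7, with standard errors from edgeR, Pkd1 model on the left and Pkd2 model on the right. In the Pkd1 model miR-503-5p lies to the right and miR-450b-3p to the left at P7, and miR-322-5p, miR-351-5p, miR-542-3p and miR-450b-5p lie to the left at P1; none passed the test.

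Several seed relatives outside the cluster rose with age. Of 5 miRNAs with the seed of miR-322-5p, 3 rose from P1 to P7 in WT kidneys of each model and 0 fell, where 10.3% and 11.4% of all miRNAs rose. The 5 had a median log2 fold change of 0.59 in the Pkd1 and 0.42 in the Pkd2 model beside −0.027 and −0.057 over all miRNAs. miR-195a-5p, which is encoded beside miR-497a in a cluster of its own, had 85.7, 87.7 and 96.4 CPM at P1 and 256, 245 and 267 CPM at P7 in the Pkd1 model and a log2 fold change of 1.51 ± 0.17 (adjusted p = 3.12e-05), and 216, 196 and 146 and 519, 545 and 478 CPM in the Pkd2 model, where it was 1.47 ± 0.20 (adjusted p = 0.000118). miR-497a-5p rose alike, by 1.49 ± 0.21 (adjusted p = 0.000406) and 1.36 ± 0.18 (adjusted p = 0.000103), and miR-15a-5p by 0.59 ± 0.17 (adjusted p = 0.0265) and 0.42 ± 0.15 (adjusted p = 0.0393). miR-16-5p, the most abundant of the 5 with 5056 ± 459.8 CPM at P7 in the Pkd1 and 12086 ± 579.9 CPM in the Pkd2 WT kidneys, was not called, with 0.36 ± 0.17 (adjusted p = 0.133) and 0.42 ± 0.22 (adjusted p = 0.172). None of the 5 was called between KO and WT at P7 in either model.

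Of 2 relatives with the miR-351-5p seed, both rose in the Pkd1 WT kidneys and neither was called in the Pkd2 WT kidneys. miR-125a-5p had a log2 fold change of 1.11 ± 0.25 (adjusted p = 0.00696) and 0.68 ± 0.31 (adjusted p = 0.116), and miR-125b-5p of 0.96 ± 0.24 (adjusted p = 0.0141) and 0.39 ± 0.25 (adjusted p = 0.257). For the arms of the cluster's hairpins that are no members, 0 of 4 were called in either WT series at P7 against P1. miR-503-3p had 21 ± 4.27 CPM at P1 and 16.9 ± 1.19 CPM at P7 in the Pkd1 WT kidneys, about as much as miR-503-5p, so that this hairpin was read from both arms. miR-351-3p had 4.86, 5.17 and 3.44 CPM at P1, 11.5, 19.4 and 9.57 CPM at P3 and 4.01, 2.49 and 2.45 CPM at P7 in the same kidneys. It rose from P1 to P3 by 1.58 ± 0.37 (adjusted p = 0.0132) on the log2 scale and changed by -2.18 ± 0.38 (adjusted p = 0.00202) from P3 to P7, while miR-351-5p, its partner, was called at neither step. In the Pkd2 WT kidneys miR-351-3p had 14, 18.9 and 17.5 CPM, 19.8, 19.2 and 17.4 CPM and 12.8, 16.6 and 17.5 CPM at the 3 ages, and neither step was called there, with 0.16 ± 0.21 (adjusted p = 0.777) and -0.26 ± 0.22 (adjusted p = 0.511).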

How the data were processed

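Small RNA from whole kidneys was sequenced, giving 36 libraries in 12 groups of 3. According to the study's methods, the authors trimmed adaptors, kept reads longer than 17 bases and quantified known miRNAs with miRDeep2 against miRBase release 21, and deposited raw read counts per mature miRNA and hairpin, without normalization. The submitters' processing notes also name CASAVA 1.8.2, HTSeq and the genome build mm10. No read identifies single molecules, so counting error is a lower bound on the error, and 3 reads corresponded to 0.0918 to 0.239 CPM at the depths of the libraries. Replicates of each group differed by more than sampling noise in all 36 pairs (chi-square per degree of freedom at least 33.3), so none was merged. No sample column was left unused.

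From the counts, the row with the most reads was taken for each of 83 miRNAs listed under several hairpins. miRNAs with at least 10 reads in at least 3 libraries were kept, which all 9 members passed. Each model was fitted alone (18 libraries) with TMM scaling and edgeR 4.0.16's quasi-likelihood F-test in R 4.3.3, with 1 mean per group and Benjamini-Hochberg adjustment over all miRNAs tested. Differences between models came from 1 fit of all 36 libraries. Ratios were log2 of counts plus 0.5, tested by exact permutation of the ages within model and genotype (scipy 1.17.1). The fits were tested on simulated counts with known changes, drawn for each miRNA on its own. Such counts lack the spread that went with the miR-10 share, so the tests were not checked under it. Alternatives were DESeq2's size factors in edgeR, library totals alone, no filter on low counts, DESeq2 1.42.0, another hairpin row, only the compared groups, the replicate number as a block, a pseudocount of 5, either genotype alone and each library left out. The miR-10 covariate and the ratios of the 5 neighbours to miR-322-5p were added after the data were seen. The ratios of miR-503-5p to miR-503-3p and to miR-322-3p were not planned either and were not tested.

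All 9 members are named. Other miRNAs are named from lists of the remaining arms, seed relatives and cell type markers, or as the 5 most correlated with miR-322-5p within groups. The members and lists were chosen with earlier results of these data known. Replicate numbers were not taken as pairs for the comparisons of genotypes, because the deviations of same-numbered libraries from their group means correlated from -0.48 to 0.51 there and never all above 0.1. They were all above 0.1 only between the Pkd2 WT libraries at P3 and P7 (0.55, 0.19 and 0.51), where the block left 0 members called.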

Additional observations from a re-analysis of the deposited data

How the results depend on the processing

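Counts of called members depended on the setting, and so did the calls over all miRNAs. The member counts are therefore not read as changes particular to the cluster. For Pkd1 KO against WT at P7 the count was 0 and became 2 with DESeq2 and 2 with the miR-10 covariate, and for Pkd2 KO against WT at P7 it was 0 and became 1 with DESeq2. For Pkd1 WT at P3 against P1 it was 2, and 0 with library totals alone, 1 without a filter, 0 with only the groups compared and 4 with the covariate. For Pkd1 WT at P7 against P3 and against P1 it was 0, but 5 and 3 with library totals alone and 3 and 4 with the covariate. For Pkd1 KO at P7 against P1 it was 3, and 5 with library totals alone or only the groups compared. For Pkd2 WT at P7 against P1 it was 1, and 0 with DESeq2's size factors, 5 with library totals alone, 0 without a filter, 2 with only the groups compared and 5 with the covariate. For Pkd2 KO at P7 against P1 it was 2, and 6 with library totals alone, 0 with only the groups compared and 4 with the covariate. Over all miRNAs in WT kidneys at P7 against P1, library totals alone gave 4 calls higher and 132 lower in the Pkd1 model. The same setting gave 6 and 216 in the Pkd2 model, and the covariate gave 238 calls in the Pkd1 model. The cause of these shifts was not tested.

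With the replicate number as a block the count was 0 for Pkd2 WT and 1 for Pkd2 KO at P7 against P1, and the block changed no other count of members.

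With each library left out in turn the counts ran from 0 to 2 for Pkd1 WT at P3 against P1 (0 without P1 WT 3, P3 WT 2 or P3 WT 3 and 1 without P1 WT 1 or P3 WT 1). They ran from 1 to 3 for Pkd1 KO at P7 against P1 (1 without P1 KO 1, P1 KO 2 or P7 KO 1). For Pkd2 KO against WT at P7 they ran from 0 to 1 (1 without KO 2), and for Pkd2 WT at P7 against P1 from 0 to 1 (1 only without P1 WT 1). For Pkd2 KO at P7 against P1 they ran from 1 to 3 (1 without any P1 library or P7 KO 3, and 3 without P7 KO 2).

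The 5 ratios to miR-322-5p kept their sign and stayed past the threshold under every alternative run. The arm ratio of miR-322 kept its sign and missed the threshold with WT libraries alone (-0.62). That of miR-542 was -0.36 with KO libraries alone, 0.43 with the slope on the miR-10 share taken out, and -0.0027 to 0.19 with libraries left out. That of miR-450b was 0.023 with WT libraries alone, -0.998 with KO libraries alone, and -0.61 to -0.34 with libraries left out. With library totals alone the P7 against P1 log2 fold change was -0.16 (Pkd1 WT) and -0.075 (Pkd2 WT) for miR-322-5p and -0.34 (Pkd1 KO) for miR-503-5p. The log2 fold change of miR-503-5p between Pkd2 KO and WT at P7 ran from -0.032 to 0.36 with libraries left out.

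Over all miRNAs, the calls for Pkd1 WT at P7 against P1 numbered 152, and 53 with only the groups compared and 238 with the covariate. Those for Pkd2 KO against WT at P7 numbered 94, and 157 with DESeq2 and 7 with library totals alone. With 3 libraries a group, the wide spread of miR-322-5p and miR-351-5p, and few reads of miR-450b-3p, limit what could be detected.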

Other observations

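On the scale of 1 fit of all 36 libraries, the median of the Pkd2 libraries over that of the Pkd1 libraries was 2.29 for miR-351-3p (14.2 against 6.20 CPM), 2.03 for miR-450a-1-3p, 1.64 for miR-542-5p (19.9 against 12.1 CPM), 1.62 for miR-450b-3p and 1.29 for miR-450a-2-3p, the rarer arms of their hairpins. miR-322-3p, a rarer arm too, was at 0.79. miR-503-3p, the arm of its hairpin with more reads, was at 1.82 (42.2 against 23.2 CPM) and its partner miR-503-5p at 1.11. The other abundant arms were at 0.75 for miR-351-5p, 0.80 for miR-450b-5p, 0.86 for miR-322-5p, 0.95 for miR-450a-5p and 0.99 for miR-542-3p. The libraries of the models were apart for 0 of 9 members, against 0.516% of all 775 miRNAs. These values were chosen after they had been seen and carry no test, and the line of mice and any batch that went with it cannot be told apart.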
